A study of Mus musculus with 6 samples.

Results

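Gluconeogenesis is the synthesis of glucose from lactate, amino acids and glycerol, and the liver is its main site. The genes described here are 6 enzymes and transporters of the pathway (Pck1, Pck2, Pcx, Fbp1, G6pc and Slc37a4) and the 2 PGC-1 coactivators Ppargc1a and Ppargc1b. They were picked by symbol from a table of 55450 genes, all 8 symbols were found, and all 8 passed the filter on low counts, which left 14539 genes. The samples were the left liver lobes of 6 mice labelled C57BL/J, with 1 poly(A) RNA library per mouse. In the knockout (KO) group 3 mice carried LKB1 fl/fl alleles, in which loxP sites flank part of the LKB1 gene (symbol Stk11), and in the wild-type (WT) group 3 mice had the normal gene. Both groups received AAV8 Cre, an adeno-associated virus of a serotype used to reach hepatocytes that carries the Cre recombinase, at 6 weeks of age, and livers were taken 4 weeks later, at 10 weeks. The promoter that drove Cre and the feeding state of the mice are not given in the sources used here, and no mouse without virus was analysed here.

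As background, LKB1 is a kinase that activates AMPK and the related SIK kinases. SIK kinases keep the CRTC coactivators of the transcription factor CREB out of the nucleus, and glucagon, through cyclic AMP, lifts that block. CREB binds the cyclic AMP response element (CRE) in the promoters of Ppargc1a, Pck1 and G6pc, and PGC-1alpha, the product of Ppargc1a, works with FOXO1 and HNF4A on gluconeogenic promoters.

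Promoter sequences are shown for the members that those CRE sites concern, with Fbp1 as the other called member. The windows are from RefSeq, build GRCm38.p6, and reach from 250 bases before to 50 bases after a gene's start. A window was found for 7 of the 8 members, with Ppargc1b as the exception. The stretches printed below end before the GENCODE start given with each gene, except that of G6pc, which runs on to the end of its last match. Capitals mark a match to a CRE-like or forkhead motif on either strand. The coordinates are chr5:51567727-51567975 (minus strand) for Ppargc1a, chr2:173152823-173153047 (plus) for Pck1, chr11:101367466-101367581 (plus) for G6pc and chr13:62888283-62888532 (minus) for Fbp1.
Ppargc1a: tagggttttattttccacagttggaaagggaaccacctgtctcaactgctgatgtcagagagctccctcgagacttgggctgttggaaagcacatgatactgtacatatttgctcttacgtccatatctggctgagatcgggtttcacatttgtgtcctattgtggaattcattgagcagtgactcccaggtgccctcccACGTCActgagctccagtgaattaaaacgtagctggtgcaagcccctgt
Pck1: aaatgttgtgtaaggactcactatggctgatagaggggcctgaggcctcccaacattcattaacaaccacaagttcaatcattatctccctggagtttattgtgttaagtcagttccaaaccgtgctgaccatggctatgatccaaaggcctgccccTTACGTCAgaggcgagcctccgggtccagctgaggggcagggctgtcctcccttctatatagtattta
G6pc: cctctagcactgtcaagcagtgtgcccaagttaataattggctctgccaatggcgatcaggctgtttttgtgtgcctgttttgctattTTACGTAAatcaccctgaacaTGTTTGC
Fbp1: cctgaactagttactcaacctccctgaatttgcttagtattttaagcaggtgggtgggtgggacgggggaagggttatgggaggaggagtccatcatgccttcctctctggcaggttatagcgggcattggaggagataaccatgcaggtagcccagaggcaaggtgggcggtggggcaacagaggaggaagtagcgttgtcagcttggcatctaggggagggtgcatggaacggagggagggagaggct

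Each motif was searched on both strands in all 32851 windows of 300 bases. Pck1 held TTACGTCA, which is present in 0.499% of all windows and begins 93 bases before the RefSeq start (173153073) and 68 bases before the GENCODE start. G6pc held TTACGTAA (0.119% of windows), which begins 162 bases before the RefSeq start (101367716) but 7 bases before the GENCODE start. It also held TGTTTGC (5.07%), which begins 141 bases before the RefSeq start and at base 15 of the GENCODE gene. The full palindrome TGACGTCA (1.79% of windows) was not in any member's window, and neither were TGACGCAA (0.49%), TGTTTAC (3.65%), TCAAGGTCA (0.423%) or its core AAGGTCA (4.72%). The shorter TGACGT, which lies within the palindrome and was added after the windows had been seen, is in 7.51% of windows. It was found on the opposite strand of Ppargc1a 50 bases before the RefSeq start, in Pck1 within the match above, and at 1 place in Slc37a4 that 2 of its windows share. A match is a run of letters and not a measured binding site.

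Total counts ran from 47659122 to 56147667 per library. Stk11 was at 22.1, 14.4 and 11.4 CPM (read counts scaled to a common library size) in KO 1, 2 and 3 and at 64.2 to 69.7 CPM in WT, and its adjusted p-value was 0.0167. KO 1 and WT 1 had 42472 and 29243 counts of Xist and at most 6 of 4 Y-linked genes. The other 4 libraries had 6146 to 8199 Y-linked counts and at most 16 of Xist. The labels do not give the sex of the mice. Results are therefore also given for the Y-count libraries (KO 2 and 3 against WT 2 and 3) and for the Xist-count pair (KO 1 against WT 1), a single comparison that no replicate checks. All 10 hepatocyte markers were detected in every library and passed the filter, and Alb, the highest, was at 10395 to 50550 CPM in KO and 57064 to 95626 CPM in WT (adjusted p = 0.19).

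Ppargc1a and Fbp1 rose in KO liver, by 7.89-fold and 3.08-fold. Pck1 and Pck2 were also higher in every KO library than in any WT library without passing the threshold in the 6 libraries together. The levels of G6pc, Slc37a4, Pcx and Ppargc1b overlapped between the groups. Of the 8 members 2 passed as higher and 0 as lower at an adjusted p-value under 0.05 (edgeR quasi-likelihood test, adjusted over all genes), against 3.37% of all tested genes called, 2.15% as higher and 1.22% as lower. Higher genes made up 63.9% of the calls, and 74.4% with library-size scaling, under which the members had the same calls. At an unadjusted p under 0.05 there were 4 members and 26.3% of all genes. Without overlap between the groups, 4 members were higher and 0 lower in KO, and 16.9% and 15.5% of all tested genes were separated in those directions. The median log2 fold change was 0.54 over the 8 members and 0.01 over all tested genes. No member lay near that median of 0.54. The members that overlapped ran from -0.12 to 0.09 and those without overlap from 0.98 to 2.98. In bulk tissue a change in the number of cells of a type and a change in RNA per cell cannot be told apart.

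**Figure D1:**
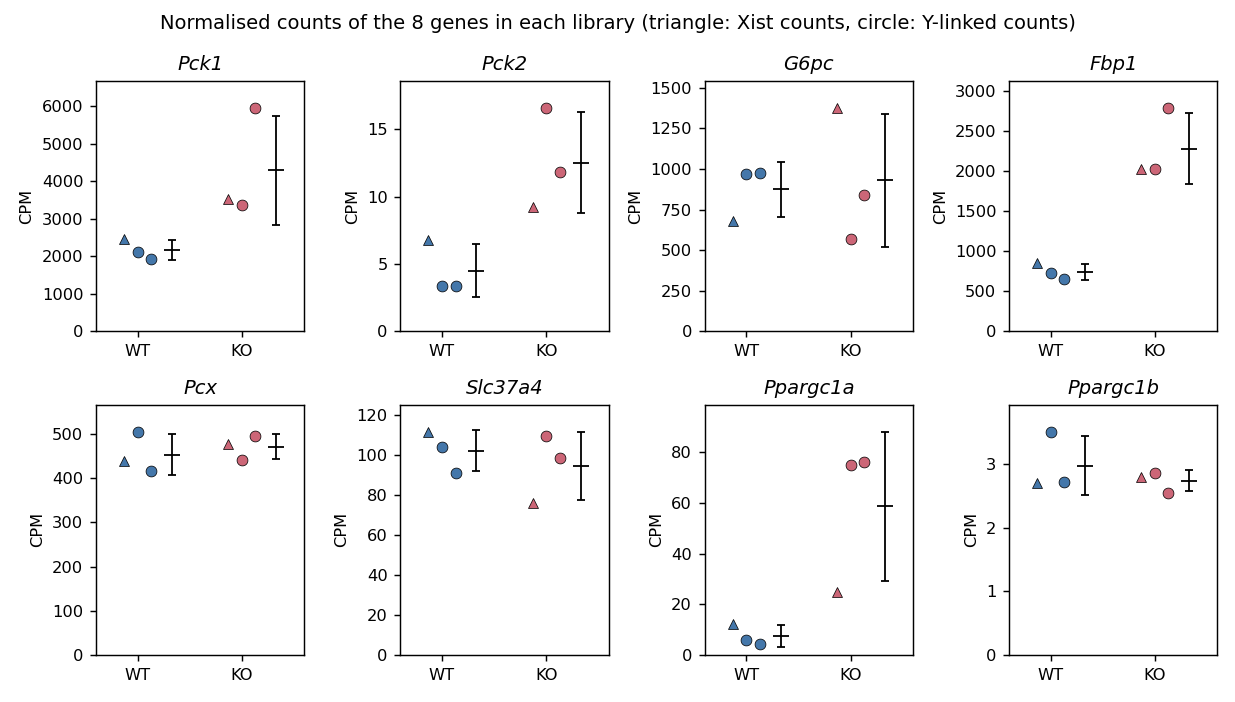
Normalised counts (CPM, linear axes from 0) of the 8 genes in each library. Blue points are WT, red points KO, triangles are the libraries with Xist counts, circles those with Y-linked counts, and the bar is the mean with its SD (n = 3). Ppargc1a was at 24.7 to 76.4 CPM in KO and 4.28 to 12.3 CPM in WT, while the groups overlapped for G6pc, Pcx, Slc37a4 and Ppargc1b.

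Pyruvate carboxylase (Pcx, ENSMUSG00000024892.17, GRCm38 chromosome 19, 4510472 to 4621752, plus strand) makes oxaloacetate from pyruvate in mitochondria, the entry step for lactate and alanine. Pcx was at 478, 440 and 495 CPM in KO 1, 2 and 3 and at 438, 505 and 416 CPM in WT 1, 2 and 3. The groups overlapped, and the highest and the lowest library were both WT. The fold change was 1.04 (95% interval 0.795 to 1.36, edgeR adjusted p = 0.855), so a change beyond 1.36-fold lay outside the interval. Pcx overlaps Lrfn4 on the other strand, which had at most 28.0 counts in a library.

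Pck1 (ENSMUSG00000027513.11, chromosome 2, 173153048 to 173159273, plus strand) encodes the cytosolic phosphoenolpyruvate carboxykinase, which turns oxaloacetate into phosphoenolpyruvate. Its levels were 3534, 3367 and 5955 CPM in KO 1, 2 and 3 and 2467, 2109 and 1922 CPM in WT. Every KO library lay above every WT library, and KO 3 stood above the other 2 KO libraries. The KO mean was 4286 ± 1448 CPM and the WT mean 2166 ± 277 CPM (SD, n = 3). The fold change was 1.98 (95% interval 1.22 to 3.21) and its edgeR adjusted p-value was 0.101. Pck1 passed the threshold in the Y-count libraries, where its log2 change was 1.20 ± 0.334 (SE, adjusted p = 0.0419), and in the Xist-count pair KO 1 was 1.43 times WT 1.

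Pck2 (ENSMUSG00000040618.7, chromosome 14, 55540266 to 55551242, plus strand) encodes the mitochondrial form of the same enzyme. It was a low transcript in this liver, with 9.19, 16.6 and 11.8 CPM in KO and 6.76, 3.39 and 3.38 CPM in WT. The KO libraries were all above the WT libraries, and KO 1 and WT 1 were the closest to each other. Its fold change was 2.78 (95% interval 1.57 to 4.92, adjusted p = 0.0663). In the Y-count libraries the log2 fold change was 2.06 ± 0.203 (SE, edgeR adjusted p = 0.00213), and KO 1 was 1.36 times WT 1. No other gene's transcript matched a Pck1 or Pck2 transcript at 95% identity or more over at least 200 bases, and none matched any of the other 6 members.

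Fbp1 (ENSMUSG00000069805.10, chromosome 13, 62864753 to 62888282, minus strand) encodes fructose-1,6-bisphosphatase, the step that opposes phosphofructokinase. It was at 2024, 2025 and 2785 CPM in KO and 848, 722 and 651 CPM in WT. The lowest KO library was above the highest WT library by more than the whole WT range. The means were 2278 ± 439 and 740 ± 99.7 CPM (SD, n = 3), a fold change of 3.08 (95% interval 2.11 to 4.50) with an edgeR adjusted p-value of 0.0252. Fbp1 was 3.49-fold higher in the Y-count libraries (adjusted p = 0.00533), and KO 1 was 2.39 times WT 1. The call was lost when KO 2, KO 3, WT 1, WT 2 or WT 3 was left out, with adjusted p-values of 0.0512 to 0.154, and the fold change stayed between 1.45 and 1.73 on the log2 scale.

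G6pc (ENSMUSG00000078650.2, chromosome 11, 101367561 to 101377903, plus strand) encodes the catalytic subunit of glucose-6-phosphatase, which releases glucose in the endoplasmic reticulum. Its levels were 1377, 571 and 842 CPM in KO and 678, 967 and 977 CPM in WT. The groups overlapped, and the order of the libraries differed by state: KO 1 was 2.03 times WT 1, while KO 2 and KO 3 were both below WT 2 and WT 3. The pooled fold change was 1.06 (95% interval 0.603 to 1.88, edgeR adjusted p = 0.889). In the Y-count libraries alone the log2 fold change was -0.47 ± 0.236 (SE, adjusted p = 0.182). With an interval that reaches 1.88-fold, the 6 libraries do not show that G6pc was alike in both groups.

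Slc37a4 (ENSMUSG00000032114.9, chromosome 9, 44396852 to 44402968, plus strand) encodes the transporter that brings glucose-6-phosphate to the glucose-6-phosphatase. It was at 76.0, 110 and 98.4 CPM in KO and 112, 104 and 91.2 CPM in WT. KO 1 was the lowest library and WT 1 the highest, and the other 4 were mixed. The fold change was 0.926 (95% interval 0.697 to 1.23, adjusted p = 0.713 by edgeR).

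Ppargc1a (ENSMUSG00000029167.13, chromosome 5, 51454250 to 51567726, minus strand) encodes PGC-1alpha, a coactivator of gluconeogenic and mitochondrial genes that fasting induces in liver. It was at 24.7, 75.2 and 76.4 CPM in KO 1, 2 and 3 and at 12.3, 5.75 and 4.28 CPM in WT 1, 2 and 3, from 200 to 4178 counts. All KO libraries were above all WT libraries, but KO 1 was the lowest of its group and WT 1 the highest of its own. The fold change was 7.89 (95% interval 3.12 to 20.0), with an edgeR adjusted p-value of 0.0446. KO 2 was 13.1 times WT 2, KO 3 was 17.9 times WT 3 and KO 1 was 2.01 times WT 1. These same-numbered libraries are different mice.

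The change of Ppargc1a itself differed between the 2 states. In the Y-count libraries it rose 15.0-fold (log2 3.91 ± 0.169, SE, adjusted p = 0.000328). The interaction of group and state, which asks whether the KO-to-WT change differs between the Xist-count pair and the other 4 libraries, was -2.91 ± 0.267 on the log2 scale (edgeR adjusted p = 0.0103). The interaction was called for 2.9% of all tested genes and for 1 of the 8 members. For Pck2 it was -1.63 (adjusted p = 0.0786) and for G6pc 1.48 (adjusted p = 0.14), neither past the threshold. Each group has 1 library with Xist counts, which the fit assumes to vary like the others, and what else separates those mice cannot be told apart from the state. KO 1, the KO library with the lowest Ppargc1a, also kept the most Stk11, and the part of that difference in the result was not tested. The 6-library call of Ppargc1a was lost without KO 2, KO 3, WT 2 or WT 3, with adjusted p-values of 0.118 to 0.211.

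Ppargc1b (ENSMUSG00000033871.14, chromosome 18, 61298136 to 61400431, minus strand) encodes PGC-1beta, the paralog tied to mitochondrial and lipid genes. Ppargc1b was at 2.80, 2.86 and 2.55 CPM in KO and 2.701, 3.51 and 2.72 CPM in WT, from 120 to 182 counts. WT 2 was the highest library and the other 5 lay close together. The fold change was 0.919 (95% interval 0.654 to 1.29, adjusted p = 0.742 by edgeR).

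**Figure D2:**
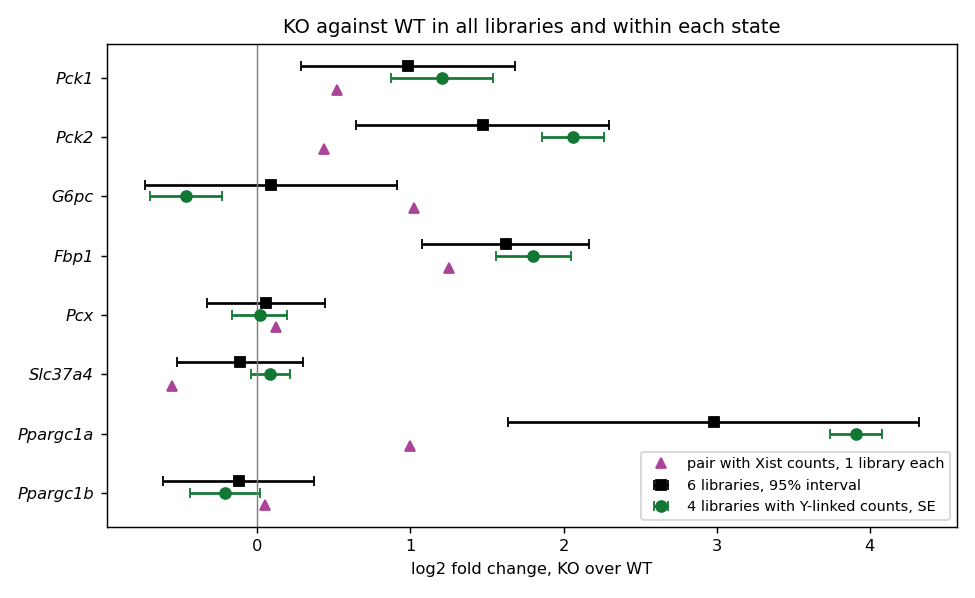
Log2 fold change (KO over WT) of each gene in all 6 libraries with its 95% interval (squares), in the 4 Y-count libraries with its SE (circles), and in the Xist-count pair (triangles, no error). For Ppargc1a these values were 2.98, 3.91 and 1.00, and for G6pc they were 0.09, -0.47 and 1.02.

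In the Y-count libraries 4 of the 8 genes passed as higher (Pck1, Pck2, Fbp1 and Ppargc1a) and 0 as lower, beside 33.3% of all tested genes that passed, 17.2% as higher and 16.1% as lower. Leaving out KO 1 alone gave the same 4 genes, and 30.2% of all genes tested there. With the state as a term in the fit of all 6 libraries, Fbp1 and Ppargc1a passed, as did 10.3% of all genes. DESeq2 called 4 members and 15.8% of all genes, and a fit with the replicate number as a block called 0 members and 0.722% of all genes. Of the 8 genes 1, G6pc, moved in opposite directions in the 2 states without overlap in the Y-count libraries, as did 23.3% of all tested genes.

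Ratios within a library do not depend on scaling between libraries. The count of Ppargc1a was 8.82, 26.3 and 29.98 times that of Ppargc1b in KO 1, 2 and 3 and 4.55, 1.64 and 1.57 times in WT. The groups did not overlap, with a difference in mean log2 ratio of 3.07, and the two-sided exact permutation p was 0.1, the smallest that 3 against 3 allows. Pck1 counts were 384, 203 and 505 times those of Pck2 in KO and 365, 621 and 569 times in WT. These overlapped, with a difference in mean log2 ratio of -0.57 (exact permutation p = 0.3, in a design that cannot go below 0.1), and the difference was -0.89 in the Y-count libraries. G6pc counts were 18.1, 5.21 and 8.55 times those of Slc37a4 in KO and 6.08, 9.31 and 10.7 times in WT (exact permutation p = 1), with KO 1 the highest and KO 2 the lowest of all 6.

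**Figure D3:**
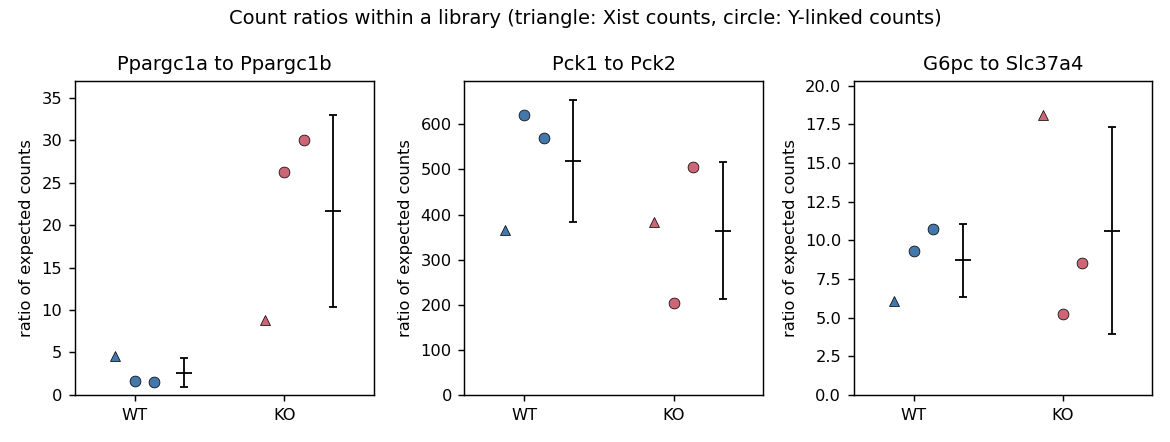
Ratio of the counts of 2 genes in the same library (linear axes from 0), with WT in blue, KO in red, triangles for libraries with Xist counts, and the mean with its SD (n = 3). The Ppargc1a to Ppargc1b ratio was 8.82 or more in KO and 4.55 or less in WT, while the other 2 ratios overlapped.

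To compare levels between genes, CPM was divided by the length in kilobases of all annotated exons of a gene. On this scale the order in WT was Pck1 (632 ± 80.7), Fbp1 (435 ± 58.6), G6pc (362 ± 70.4), Pcx (95.4 ± 9.78), Slc37a4 (35.8 ± 3.59), Ppargc1a (1.13 ± 0.648), Ppargc1b (0.746 ± 0.116) and Pck2 (0.578 ± 0.25), as mean CPM per kilobase with its SD (n = 3). Fbp1 and G6pc overlapped, as did Ppargc1a with Ppargc1b and Ppargc1b with Pck2, and the other neighbours did not. In KO the first 2 places were Fbp1 (1339 ± 258) and Pck1 (1250 ± 422), which overlapped, and Pck2 (1.61 ± 0.481) stood above Ppargc1b (0.686 ± 0.0417) without overlap. The annotated exons of Pck2 sum to 7806 bases, the most of the 8 genes, and its value on this scale depends on that gene model. The 6 enzymes together took 0.653% to 1.02% of scaled counts in KO and 0.406% to 0.455% in WT, and Pck1, Fbp1 and G6pc made up 86.1% to 94.1% of that sum.

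The genes whose log2 CPM followed a member most closely over the 6 libraries were sought among 11965 genes with a mean of at least 1 CPM. For Ppargc1a they were Klhl3, Sult1a1 and Sds, with a Pearson r of 0.998, 0.998 and 0.996. Sds, the serine dehydratase that makes pyruvate, was at 264, 627 and 712 CPM in KO and 126, 76.0 and 67.0 CPM in WT, the same low KO 1 and high WT 1 as Ppargc1a. For Pck1 they were Eri3, Emg1 and Shmt1 (r of 0.994, 0.992 and 0.991), and for Fbp1 Zbtb11os1, Rrm1 and Slc7a2 (0.999 each for the first 2, and 0.998). For G6pc they were Dexi, Lsm10 and Iqsec2 (0.991, 0.99 and 0.989), whose KO-to-WT folds were 0.999 to 1.01. With 6 libraries that differ in group and state such coefficients only describe the libraries.

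The reversible steps between phosphoenolpyruvate and glucose-6-phosphate serve glycolysis and gluconeogenesis alike. Of 7 such genes 3 were called as higher and 0 as lower, with a median log2 fold change of 1.20. All 7 were above WT without overlap. Over all tested genes 2.15% were called as higher and 1.22% as lower, and 16.9% were above WT without overlap. In the Y-count libraries all 7 were called as higher, beside 17.2% of all genes. The genes called in the 6 libraries were Gpi1, glucose-6-phosphate isomerase (2.52-fold, adjusted p = 0.0255), Eno1, enolase (3.05-fold, 0.0431), and Gapdh (2.29-fold, 0.049). Fbp2, the muscle paralog of Fbp1, whose step is not reversible, was at most 0.214 CPM in any library and was not tested.

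Genes that bring carbon into the pathway were divided. Of 18 tested, 5 were called as higher and 0 as lower, beside 2.15% and 1.22% of all genes, and the median was 0.25. Got1, the cytosolic aspartate aminotransferase that returns oxaloacetate to the cytosol, rose 9.12-fold (adjusted p = 0.0214), Sds rose 5.95-fold (0.0346) and Gpt2, the mitochondrial alanine aminotransferase, rose 3.28-fold (0.0331). Mdh2, malate dehydrogenase of the mitochondria, rose 3.21-fold (0.048), and Slc25a11, the oxoglutarate-malate carrier, 1.61-fold (0.048). Mdh1, its cytosolic partner, was 2.49-fold higher without passing (0.0566). The glycerol and lactate genes Aqp9, Gpd1, Gk and Ldha had log2 fold changes of -0.48, -0.39, 0.15 and -0.45, none of them past the threshold. In the Y-count libraries 8 of the 18 were called as higher and 0 as lower, beside 17.2% and 16.1% of all genes.

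Of 7 glycolytic enzymes and regulators of glucose use, 0 were called as higher and 1 as lower, with a median of -0.44. Over all tested genes 2.15% were called as higher and 1.22% as lower. Without overlap 1 was higher and 4 were lower, beside 16.9% and 15.5% of all genes. An unadjusted edgeR p under 0.05 was found for 5 of the 7, beside 26.3% of all genes. In the Y-count libraries 0 were called as higher and 5 as lower, beside 17.2% and 16.1% of all genes. The list holds Gckr and Pdk4, which are inhibitors of other enzymes and do not themselves oppose gluconeogenesis. Pfkfb3, which makes the activator of phosphofructokinase, fell from 8.02 ± 2.30 to 2.94 ± 0.222 CPM (SD, n = 3), 2.73-fold lower (edgeR adjusted p = 0.0322). Pfkfb1 was at 16.6 to 18.8 CPM in KO and 22.4 to 24.6 CPM in WT without passing (log2 -0.44, edgeR adjusted p = 0.0747). Gckr, the highest of the list, had a log2 fold change of 0.65 (adjusted p = 0.126). The paralogs of G6pc and Slc37a4 gave 0 calls by edgeR among 4 tested. Of the 4, 1 (G6pc3) had an unadjusted p under 0.05 (1.69-fold, adjusted p = 0.0781), beside 26.3% of all genes. Slc37a3 was the highest of the paralogs, at 22.0 to 29.7 CPM, and G6pc2 was at 0 in every library.

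**Figure D4:**
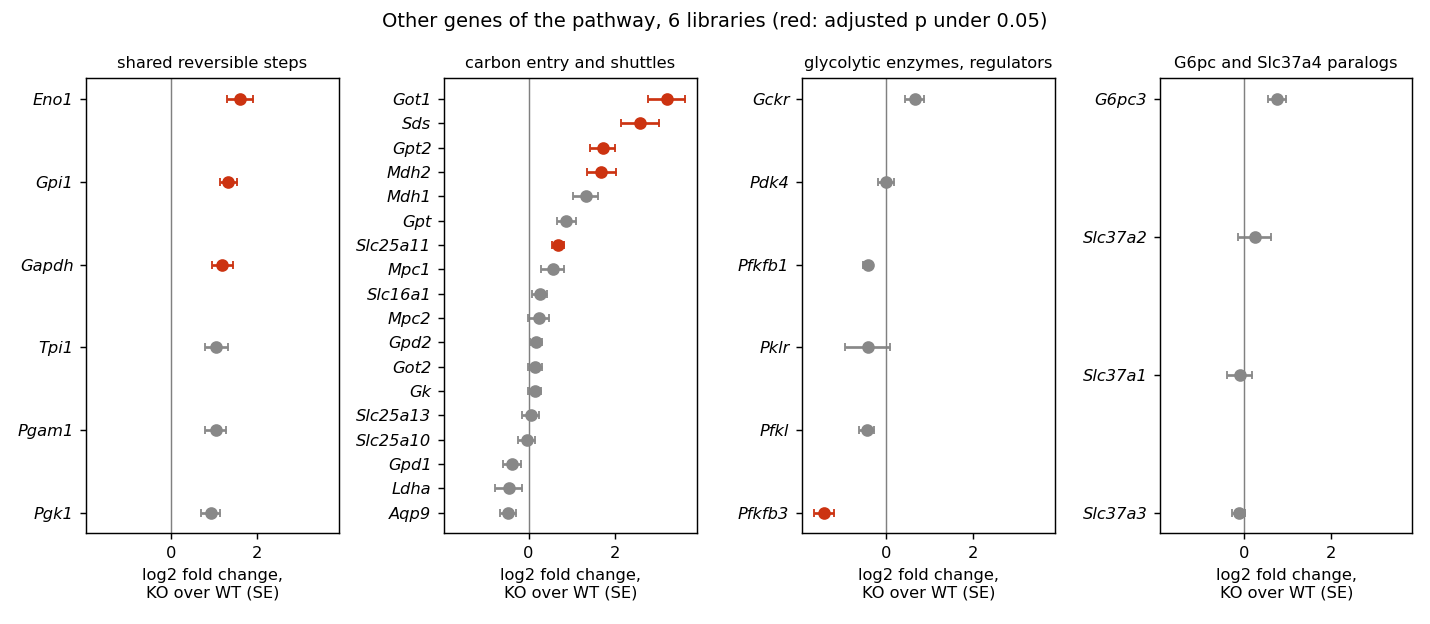
Log2 fold change (KO over WT, 6 libraries) with its SE for tested genes of 4 lists, with red points for an adjusted p-value under 0.05. The reversible steps run from 0.92 (Pgk1) to 1.61 (Eno1), the carbon entry genes run from -0.48 (Aqp9) to 3.19 (Got1), and the glycolytic enzymes and regulators run from -1.45 (Pfkfb3) to 0.65 (Gckr).

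Among 25 factors that act on gluconeogenic genes 1 was called as higher and 1 as lower, with a median of -0.07. The shares over all tested genes were 2.15% and 1.22%. Sik1, the CREB-induced SIK kinase, had 79.9, 288 and 189 CPM in KO and 24.0 to 42.4 CPM in WT (5.75-fold, adjusted p = 0.044). Nr0b2, the repressor SHP, fell from 29.2 ± 1.71 to 17.1 ± 2.12 CPM (1.71-fold lower, adjusted p = 0.0347). Hnf4a, the highest of this list, had a log2 fold change of 0.20 (0.47), Crtc2 0.44 (0.159), Creb1 -0.10 (0.75) and Foxo1 0.57 (0.253). Of 18 partners and downstream genes of PGC-1 1 was called as higher, beside 2.15% of all genes, with a list median of 0.19. That was Esrra, the nuclear receptor ERR-alpha, at 27.0, 64.2 and 48.3 CPM in KO and 14.3 to 17.4 CPM in WT (2.88-fold, adjusted p = 0.048), while Acadm, the highest, had a log2 fold change of -0.17 (0.491). In the Y-count libraries 7 of the 18 were called as higher and 1 as lower, and of the 25 factors 7 as higher and 6 as lower, beside the 17.2% and 16.1% of all genes.

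Other marker genes moved with the groups as well. Over all tested genes, 2.15% were called as higher and 1.22% as lower, and 16.9% and 15.5% were separated in those directions. An unadjusted edgeR p under 0.05 was found for 26.3%. In the Y-count libraries 17.2% of all genes were called as higher and 16.1% as lower. Gluconeogenesis is a periportal function, and of 10 periportal markers 4 were called as higher (Gls2, Asl, Ass1 and Sds) and Cyp2f2 was lower without overlap (adjusted p = 0.123), with summed levels of 24976 to 48629 CPM in KO and 12149 to 13159 CPM in WT. The 10 pericentral markers summed to 4560 to 7254 CPM in KO and 8259 to 9490 CPM in WT, with Cyp1a2 called as lower and Oat as higher. Without Oat, a sum added after seeing the data, the other 9 came to 992 to 3422 CPM in KO and 7777 to 8952 CPM in WT. Cyp2e1, the highest of them, was 5.30-fold lower (adjusted p = 0.064). In the Y-count libraries 7 of the 10 periportal markers were called as higher and 1 as lower. The lower one was Cyp2f2 (log2 -2.92, edgeR adjusted p = 0.000662). Of the 10 pericentral markers 1 was called there as higher and 6 as lower. The 10 hepatocyte markers summed to 36515 to 84782 CPM in KO and 92014 to 137357 CPM in WT, with a median log2 fold change of -0.36. Alb was the largest part of each sum, at 10395 to 50550 CPM in KO and 57064 to 95626 CPM in WT, so the sums mostly follow that gene. Of these 10 genes 5 were lower and 3 higher without overlap, 1 (Tat) was called as higher (3.63-fold, 0.0344) and 0 as lower, and in the Y-count libraries 4 were called as lower and 1 as higher. Sums of 10 endothelial markers were 133 to 216 CPM in KO and 257 to 348 CPM in WT, with 0 called by edgeR, 9 at an unadjusted p under 0.05 and 9 called as lower in the Y-count libraries. The summed levels of Kupffer and immune, stellate and bile duct markers overlapped between the groups, with 0 called and 1, 0 and 1 at an unadjusted p under 0.05. In the Y-count libraries alone, 3 of 10 Kupffer and immune, 5 of 10 stellate and 2 of 8 bile duct markers were called as lower and 1, 0 and 0 as higher. There the stellate sums were 150 and 107 CPM in KO and 203 and 239 CPM in WT, and the bile duct sums 31.4 and 40.6 CPM in KO and 53.4 and 63.5 CPM in WT, without overlap. Eng, the highest endothelial marker, was at most 64.8 CPM in a library, and Cd5l, Dcn and Spp1, the highest of the other 3 lists, at most 73.8, 194 and 67.7 CPM. Of 7 genes of kidney and intestine, the other gluconeogenic tissues, 4 were tested and 0 were called. Kap and Slc5a2 were at 0 in every library, and Slc34a1, Vil1 and Lrp2 were at most 0.0579, 0.670 and 1.62 CPM. Apoa4, which liver also makes, was at 303 to 1591 CPM in KO and 56.6 to 95.4 CPM in WT (adjusted p = 0.0507). Fabp2 was at 75.4, 9.54 and 10.7 CPM in KO 1, 2 and 3 and 38.3 to 47.3 CPM in WT (adjusted p = 0.769). In the Y-count libraries Apoa4 was called as higher (log2 2.52, edgeR adjusted p = 0.000867) and Fabp2 as lower (log2 -2.13, 0.000616). Among 7 tested clock genes 1 was called, Arntl, at 33.9 to 47.4 CPM in KO and 15.1 to 22.2 CPM in WT (2.20-fold, adjusted p = 0.0334). Per1 was 3.47-fold higher (0.0687) and Nr1d1 1.95-fold lower (0.163), both without overlap and not called. Clock, the highest, had a log2 fold change of -0.42 (0.211). In the Y-count libraries 2 of the 7 clock genes were called as higher and 1 as lower. There Per1 was among the higher (log2 2.19, edgeR adjusted p = 0.00295), and Clock was the lower one (log2 -0.55, 0.0226). The part of zonation, cell make-up and the clock in the changes of Pck1, Pck2, Fbp1 and Ppargc1a was not tested.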

How the data were processed

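A table of RSEM expected counts (reads estimated per gene) for 55450 genes and 6 libraries was deposited by the authors. Per the submitters' processing notes, bcl2fastq 2.17, cutadapt 1.18, STAR 2.7.0f and RSEM 1.3.1 were used with the build mm9. All 55450 versioned gene identifiers and symbols were found in GENCODE M21 (GRCm38), so positions come from that annotation. The use of strand is not given in the sources used here, so counts of overlapping genes are uncertain. Columns were matched to samples by the labels' descriptions, and 0 were left over. Samples are separate mice, so p-values measure the spread between mice.

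Expected counts were rounded, filtered with filterByExpr, scaled by TMM and tested with edgeR 4.0.16 in R 4.3.3 (quasi-likelihood, group only, Benjamini-Hochberg over 14539 genes, threshold 0.05). The SE is the log2 fold change over the square root of F. Fold changes in the Y-count libraries came from a separate edgeR fit of those 4 libraries, with its own filter and TMM scaling. Log2 values of the Xist-count pair used an offset of 0.1 CPM. Alternatives used limma 3.58.1 and DESeq2 1.42.0, and the tests were tried on simulated counts. The members, lists and state comparison were chosen with earlier results of these data known. Named genes are the members, Stk11, up to 6 called genes and the highest gene of each list, and the 3 genes most like Ppargc1a, Pck1, Fbp1 and G6pc. Some list genes are not reported here. Genes named beyond these were chosen after their values were seen.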

Additional observations from a re-analysis of the deposited data

Results flagged for a closer look

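The results below differed between the Xist-count pair and the 4 Y-count libraries, as the KO-to-WT change in the former minus that in the latter, on the log2 scale. By the adjusted interaction test of edgeR this held for Ppargc1a at -2.91, for Sds at -2.16 ± 0.28 (SE, adjusted p = 0.0234) and for Sult1a1 at -3.04 ± 0.364 (adjusted p = 0.0199). The latter 2 were named for their likeness to Ppargc1a, so they are not independent of it. Only genes named by the rule in the processing section were looked at here. Other list genes also passed this test, in either direction, such as the marker genes Fabp2 at 3.10 and Cyp2f2 at 2.75. Over all tested genes 2.9% passed it.

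Other results are listed because KO 2 and KO 3 lay on one side of WT 2 and WT 3 and KO 1 on the other side of WT 1, which is so for 23.3% of all tested genes. They too were sought only among the genes named by the rule. Fabp2, Gpd1, Gk, Foxo1 and Creb1, named beyond the rule, had the same pattern. For G6pc the difference was 1.48 ± 0.416 (SE, edgeR adjusted p = 0.14), for Slc37a3 0.28 (0.403) and for Spp1 0.74 (0.23). The genes named for their likeness to G6pc gave 0.82 for Dexi, 0.73 for Lsm10 and 0.57 for Iqsec2, with adjusted p-values of 0.156 to 0.242. The Pck1 to Pck2 count ratio differed by 0.97 and the G6pc to Slc37a4 count ratio by 2.16, and these 2 differences were not tested.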

How the results depend on the processing

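Ppargc1a was called in 12 of 17 settings and Fbp1 in 11 of 17, both always higher in KO. Pck2 was called in 5 and Pck1 in 3, also always higher. G6pc, Pcx, Slc37a4 and Ppargc1b were called in 0 of the 17 settings. The test called 490 genes, 63.9% of them as higher, and 2 members. DESeq2 called 2290 genes and 4 members, with Pck1 at 0.97 (adjusted p = 0.00441) and Pck2 at 1.46 (0.00122). With no filter on low counts 771 genes were called and Pck2 passed at 1.47 (0.0448). Library-size scaling called 74.4% of its genes as higher and moved no member across the threshold. With the state as a term 1504 genes were called. In the 4 Y-count libraries 4847 genes and 4 members were called, Pck1 passed at 1.20 and Pck2 at 2.06, and G6pc turned to -0.47, Slc37a4 to 0.086 and the log2 G6pc to Slc37a4 ratio to -0.58. The counts of list genes called there were added after seeing the data.

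Leaving out 1 library at a time gave 6 to 4473 genes (6 without WT 2, 20 without WT 3, 35 without KO 3, 86 without KO 2, 262 without WT 1 and 4473 without KO 1) and 0 to 4 members. Log2 fold changes ran from 0.67 to 1.14 for Pck1, 1.22 to 1.88 for Pck2, -0.31 to 0.35 for G6pc, 1.45 to 1.73 for Fbp1, -0.0027 to 0.14 for Pcx, -0.22 to 0.019 for Slc37a4, 2.6997 to 3.55 for Ppargc1a and -0.19 to 0.014 for Ppargc1b, and the log2 G6pc to Slc37a4 ratio from -0.34 to 0.56. It was -0.10 without WT 1. The sign of G6pc turned without KO 1 (-0.31) or WT 1 (-0.067). Causes were not tested.

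With a replicate block by number 105 genes and 0 members were called, with Fbp1 at 1.61 (adjusted p = 0.0818) and Ppargc1a at 3.01 (0.0981). Same-numbered libraries had deviations from their group means that correlated at 0.178, 0.0443 and 0.0679, so the numbers are not treated as pairs. Not every library correlated best with its own number. The paired exact permutation p of the ratios was 0.25, 0.5 and 1, where 0.25 is the smallest that 3 pairs allow.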
